A study of Homo sapiens with 12 samples.

Results

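The SR and hnRNP splicing factors of HCT116 cells, an established human colon cancer line, were followed by RNA sequencing across 6 groups of cultures in a knockdown study of NFYA. The members were the genes of the count table whose current symbol was protein-coding and read SRSF followed by a digit, began with HNRNP, or was TRA2A or TRA2B. This gave 38 of 63677 genes, of which 14 belonged to the SR family and 24 to the hnRNP family. NF-Y, the factor of CCAAT boxes, contains the product of NFYA, and the study asked whether silencing all NFYA transcripts and silencing the transcripts with the longest 3′ UTR change gene expression in the same way. The groups siTotal1 and siTotal2 received an siRNA against all NFYA transcripts, siLong1 and siLong2 an siRNA against the longest 3′ UTR, siControl a non-targeting siRNA, and mock the transfection without siRNA. Each siRNA was used at 62.5 nM, cells were collected at 72 h after transfection, and each group had 2 libraries of polyadenylated RNA from biological duplicates, with 35604197 to 49746637 reads counted per library. Below, siTotal and siLong stand for the mean of their 2 siRNAs. Standard errors and p-values for these means come from differences among replicate libraries only. How far siRNAs of 1 target vary is not part of them. A siTotal or siLong result therefore describes the siRNAs used and is not a test of the target. All groups were transient transfections of 1 cell line, so no other genetic background was sampled.

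SR proteins pair RNA recognition motifs with a domain rich in arginine and serine, bind exonic enhancers and mostly favour exon inclusion. The hnRNP proteins coat nascent pre-mRNA and many of them bind silencer elements and favour skipping, although both families also act in export, stability and translation of mRNA. Many genes of both families limit their own output through alternative exons that bring a premature stop codon, and such transcripts are removed by nonsense-mediated decay. Counts per gene, as used here, sum over such isoforms.

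NFYA itself gave 47.9 and 46.8 CPM (reads scaled to a common library size) in siTotal1, 46.0 and 46.2 in siTotal2 and 47.7 and 46.5 in siLong1, against 57.4 and 57.5 in siControl and 55.2 and 59.1 in mock. The libraries labelled siLong2 had 69.7 and 70.2 CPM, above both controls, so NFYA went against the label there. Many siLong results below, but not all, are given with siLong1 alone as well. Among 7 markers of colon epithelium, VIL1 was at 0.17 CPM or below and the other 6 were at 55.9 CPM or above in every library, and the list summed to 5048 to 5517 CPM in the siLong libraries against 3420 to 3490 CPM in siControl and 3498 to 3696 CPM in mock, through KRT8, KRT18 and KRT19. The sum for 4 neural markers, mostly MAP2, was 22.1 to 23.8 CPM in siLong2 and 21.1 to 23.8 CPM in siTotal2, and 7.28 to 12.3 CPM in the other groups. Fibroblast markers summed to 26.3 to 45.1 CPM, of which COL1A1 gave 25.9 to 41.7 CPM. DCN was at 2.55 and 1.30 CPM in siTotal2, 1.10 in siLong2 replicate 2 and 2.10 in mock replicate 1, and at most 0.056 in the other 8 libraries. Blood markers summed to 0.144 to 0.613 CPM and endothelial markers to 0.42 to 1.22 CPM, with PECAM1 at 0 in every library. The part of these markers in the results below was not tested, and in bulk RNA fewer cells of a type and less RNA per cell cannot be told apart.

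The guide strands of the 4 siRNAs against NFYA (chromosome 6) are shown because siRNAs of 1 target gave unlike values for several members. They are the complements of the sense strands in the submitters' protocol, 5′ to 3′ without overhangs, with the seed (bases 2 to 8) in capitals. No seed was shared between them. The protocol does not say which sequence of a target is siRNA 1 and which is siRNA 2. Seed matches in the members were not searched.
siTotal, listed first: uUUCCCUUcugccucuagu
siTotal, listed second: aAAUCGUCcaccuucacca
siLong, listed first: uUACCCUAcaaugaucacu
siLong, listed second: uGAUGCUAaaggaaugacc

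NF-Y binds CCAAT boxes, so the promoters of the members were searched for CCAAT on either strand (CCAAT or ATTGG as read on the gene's strand) from 250 bases before to 50 bases after the gene start, in RefSeq sequence of GRCh38.p14. The motif was in 14 of 22 hnRNP promoters (63.6%) and in 2 of 12 SR promoters (16.7%), against 34.6% of 35116 promoters of all genes and 34.7% of protein-coding ones. No sequence was used for SRSF2, TRA2A, HNRNPA1 and HNRNPA1L3. In HNRNPU the matches on the 2 strands share letters. The windows below are those of the members described most fully in the results and of SRSF3, the one tested SR gene among those searched that had the motif, and for HNRNPH2 the one of its 3 windows nearest the gene start is shown. They are read on the gene's strand with the motif in capitals. A match describes the letters of the window and is not a measured NF-Y site. The windows and the shares depend on the gene start used. For 27 of 34 member promoters, 35 bases just after the start matched a GENCODE 29 transcript of the gene. Of the windows shown, those of HNRNPH3 and HNRNPA2B1 lie inside the gene as GENCODE 29 bounds it.
SRSF3 (+), chr6:36594280-36594308: cttctgcttctcATTGGgggagcccgtcc
SRSF3 (+), chr6:36594295-36594323: gggggagcccgtCCAATcatgtgattcca
HNRNPA2B1 (-), chr7:26200831-26200859: agccttcccgccATTGGcggcggataggg
HNRNPR (-), chr1:23344481-23344509: ctgagcaccctcATTGGttcagccggcag
HNRNPR (-), chr1:23344456-23344484: gcagcttcatcgATTGGctctcgagtcgt
HNRNPUL2 (-), chr11:62727487-62727515: gcaccggcggcgATTGGcccgggggcgcc
HNRNPAB (+), chr5:178204403-178204431: gcgccgtggcggCCAATgggacgctgaag
HNRNPAB (+), chr5:178204446-178204474: ggacttgagcagCCAATgagtgtgcagtt
HNRNPH3 (+), chr10:68331443-68331471: cgcgcggcacATTGGgacgaagcgcgctg
HNRNPH2 (+), chrX:101408069-101408097: acgttccgctaaCCAATcaccctcttcct

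Of the 38 members, 35 had enough reads to be tested (12 SR, 23 hnRNP). SRSF8 had 0 reads in all 12 libraries together, SRSF12 had 8 and HNRNPCL4 had 11. TAF15 and RBM8A, which are on the gene lists below, also had 0 CPM in every library. Whether 0 reads means no expression or an identifier that the counting missed was not tested. Levels per kb of merged exon spanned more than 2 orders of magnitude in siControl. HNRNPA1, which binds exonic silencers, led with 276 ± 2.0 CPM per kb (SD, n = 2), ahead of HNRNPK, a poly-C binder, with 190.2 ± 2.6 and HNRNPA2B1, a close relative of HNRNPA1, with 187 ± 8.3 CPM per kb. HNRNPK and HNRNPA2B1 did not differ beyond their spread. The highest SR genes were SRSF2 and SRSF1, both enhancer binders, with 129 ± 0.05 and 119 ± 0.85 CPM per kb. SRSF10, known as a repressor when dephosphorylated, gave 1.86 ± 0.01 CPM per kb and was the lowest SR gene tested, and HNRNPCL1, a copy of HNRNPC, gave 0.648 ± 0.057. The plot of levels per exon length shows that the range of the group means was small beside these differences between genes.

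**Figure D1:**
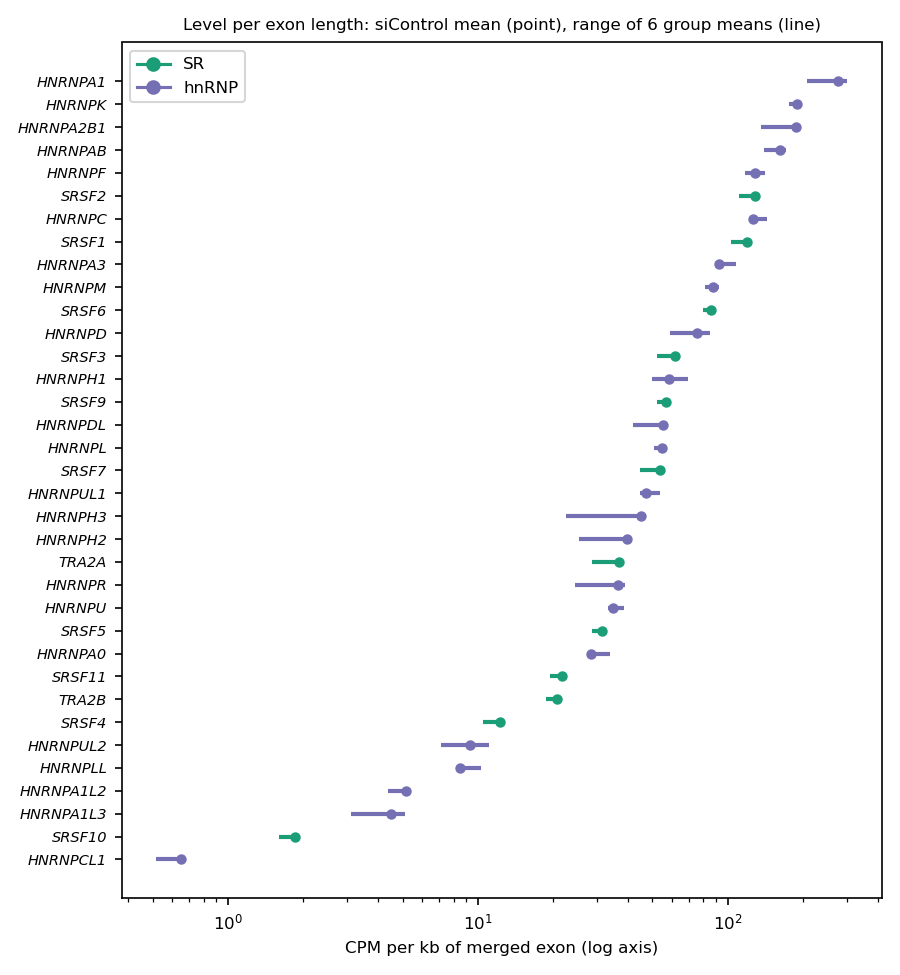
Level of each tested member in CPM per kb of merged exon on a log axis, with the siControl mean as a point, the range of the 6 group means as a line, and colour for the family. HNRNPA1 is at the top with 276 CPM per kb in siControl and HNRNPCL1 at the bottom with 0.648.

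Together the SR genes took 0.268 ± 0.002% of counted reads in siTotal1, 0.278 ± 0.002% in siTotal2, 0.276 ± 0.004% in siLong1 and 0.255 ± 0.0001% in siLong2, against 0.291 ± 0.001% in siControl and 0.295 ± 0.001% in mock (SD, n = 2 each). The hnRNP genes took 1.03 ± 0.023% in siTotal1, 1.04 ± 0.004% in siTotal2, 1.02 ± 0.018% in siLong1 and 0.932 ± 0.012% in siLong2, against 1.07 ± 0.002% in siControl and 1.14 ± 0.011% in mock. These are shares of raw counts, without the TMM scaling used for CPM. By this measure each of the 4 siRNA groups was below both controls for both families, and siLong2 was below the other siRNA groups. The highest group mean over the lowest had a median of 1.16 among SR genes (1.10 to 1.30) and 1.23 among hnRNP genes (1.10 to 1.99), against 1.48 over the 12352 tested genes with an average log2 CPM over 1. The lowest of the 6 group means was siLong2 for 8 of 12 SR genes and 11 of 23 hnRNP genes, and the highest was mock for 6 SR and 9 hnRNP genes. The same shares over all tested genes were not computed, so these counts describe the members and are not read as particular to them.

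The median over each family of a gene's log2 CPM minus its own mean over the 12 libraries weights genes equally. It also uses TMM-scaled CPM, whereas the shares above are of raw counted reads. The groups came in another order than by share: siLong2 was again the lowest, but siLong1 was the highest siRNA group for the SR family. Whether weighting or scaling gave the other order was not tested. The SR median was -0.02 in both siTotal1 libraries, -0.01 and -0.02 in siTotal2, 0.04 and 0.02 in siLong1 and -0.11 and -0.12 in siLong2, against 0.07 in both siControl libraries and 0.07 and 0.09 in mock. The hnRNP median was -0.11 and -0.14 in siLong2 and 0.08 and 0.10 in mock, and the siTotal and siLong1 libraries lay between -0.06 and 0.06, where they overlapped with siControl (0.02 and 0.05).

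**Figure D2:**
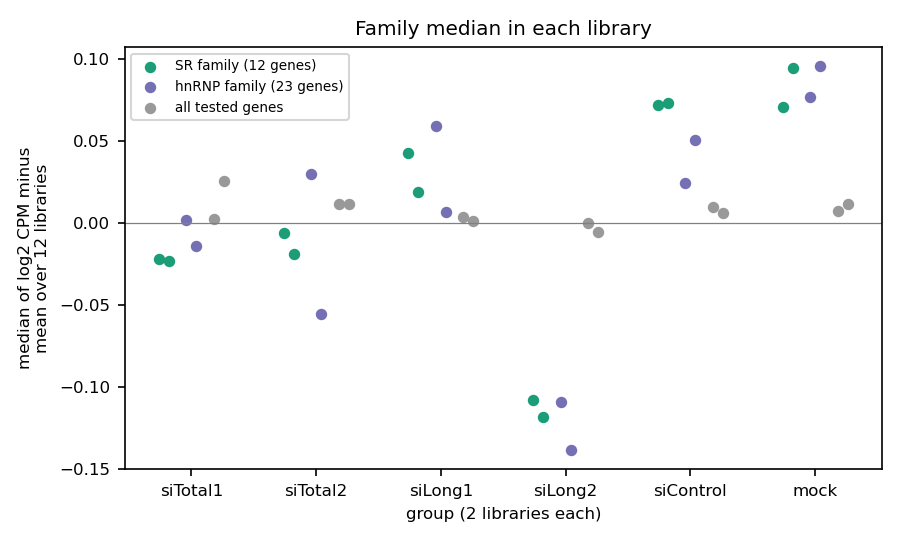
Median over a family of log2 CPM minus the gene's mean over the 12 libraries, 1 point per library, for the 12 SR genes, the 23 hnRNP genes and all tested genes. The siLong2 libraries are lowest for both families (-0.14 to -0.11) and the 8 siRNA libraries are below the 4 control libraries for the SR family.

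Among SR genes, small falls were found and no rise. Differences between groups are log2 fold changes from edgeR's quasi-likelihood test on all 12 libraries, with Benjamini-Hochberg adjustment over 17730 genes, and a gene is called at an adjusted p under 0.05. Against siControl, siTotal called 5 of 12 SR genes lower and 0 higher, where 22.2% of all tested genes were called lower and 22% higher. Its SR median was -0.08, beside 0.00 over all genes. siLong called 8 of 12 lower and 0 higher against siControl, where 28.4% and 25.1% of all tested genes were called, with an SR median of -0.11 beside -0.01 over all genes. Against mock, siTotal called 5 of 12 lower and 0 higher (14.2% and 16.6% of all genes), and siLong called 9 of 12 lower and 0 higher (26.4% and 24.4%), with SR medians of -0.08 and -0.15. With siLong1 alone the SR median was -0.05 against siControl and -0.06 against mock. At an unadjusted p under 0.05, edgeR also had 0 SR genes higher in each of these 4 comparisons, and DESeq2 called 0 higher. siTotal and siLong were compared with the same control libraries, so these counts are not independent of each other.

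SRSF1, an enhancer binder and a proto-oncogene, was lower under all 4 siRNAs. It had 355 and 355 CPM in siTotal1, 345 and 343 in siTotal2, 368 and 367 in siLong1 and 340.1 and 346 in siLong2, against 396 and 400.0 in siControl and 395 and 395 in mock. All 8 siRNA libraries were below all 4 control libraries. The log2 change was -0.19 ± 0.03 (SE) for siTotal (adjusted p = 9.72e-06, edgeR) and -0.17 ± 0.03 for siLong (adjusted p = 4.35e-05) against siControl, and -0.17 and -0.15 against mock. For siLong1 alone it was -0.12 against siControl (adjusted p = 0.00858), and this call was lost without siControl replicate 2 or siLong1 replicate 2 (adjusted p = 0.0708 and 0.0554).

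SRSF4 and SRSF7 fell with the siLong siRNAs. SRSF4, a splicing regulator of the same group as SRSF5 and SRSF6, had 95.3 and 91.9 CPM in siLong1 and 93.6 and 93.1 in siLong2, against 109 and 109.7 in siControl and 114 and 115 in mock. The siLong libraries did not overlap with the controls. Its log2 change was -0.23 ± 0.04 against siControl (adjusted p = 1.41e-06, edgeR) and -0.29 ± 0.04 against mock (adjusted p = 1.05e-08), and siLong1 and siLong2 differed by 0.00 (adjusted p = 0.955). In siTotal1 it had 106 and 109.5 CPM and in siTotal2 100.7 and 100.9, and siTotal minus siLong was 0.16 ± 0.03 (adjusted p = 3.21e-05).

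SRSF7, which also serves as an adaptor for mRNA export, had 205 and 197 CPM in siLong1 and 179.8 and 181 in siLong2, against 216 and 217 in siControl and 224 and 219 in mock. All 4 siLong libraries were below the controls, and siLong2 was below siLong1. The siLong change was -0.19 ± 0.03 against siControl (adjusted p = 1.33e-05) and -0.22 ± 0.03 against mock (adjusted p = 8.03e-07). For siLong1 alone it was -0.11 against siControl (adjusted p = 0.0175), a call lost without siControl replicate 1, siControl replicate 2 or siLong1 replicate 2 (adjusted p = 0.0802, 0.078 and 0.195). siTotal1 had 213 and 207 CPM and siTotal2 212 and 208, and siTotal minus siLong was 0.14 ± 0.03 (adjusted p = 4.35e-05, and 0.106 without the siLong2 libraries).

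TRA2A and TRA2B, homologues of Drosophila transformer-2 that bind GA-rich enhancers, differed between the siLong siRNAs. TRA2A had 116 and 117 CPM in siTotal1, 119 and 118 in siTotal2, 132 and 129 in siLong1 and 102 and 99.1 in siLong2, against 127 and 130.3 in siControl and 126 and 128 in mock. The siLong2 libraries were the lowest of all 12, and siLong1 overlapped with the controls. The change was -0.35 ± 0.04 for siLong2 (adjusted p = 3.35e-09) and 0.02 ± 0.04 for siLong1 (adjusted p = 0.69) against siControl, and siLong1 minus siLong2 was 0.38 ± 0.04 (adjusted p = 1.01e-09). siTotal was lower by a log2 change of -0.13 ± 0.04 against siControl (adjusted p = 0.00223). TRA2B followed in siLong2 with 222 and 219.7 CPM, against 239.5 and 249.5 in siControl and 247 and 249.5 in mock.

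SRSF2 showed the same split, with 382 and 382 CPM in siLong1 and 329.9 and 338 in siLong2, against 388 and 388 in siControl and 397 and 396 in mock. Only siLong2 was called among the siLong siRNAs (-0.22 ± 0.04 against siControl, adjusted p = 1.37e-05), and siLong1 minus siLong2 was 0.19 ± 0.04 (adjusted p = 6.8e-05). In siTotal it changed by -0.12 ± 0.03 against siControl (adjusted p = 0.00466). For SRSF3, the smallest SR protein and an export adaptor, siLong2 had 362 and 380.1 CPM, against 431 and 445 in siControl and 437.5 and 443 in mock, and the change was -0.24 ± 0.04 against siControl. SRSF5, SRSF6, SRSF9, SRSF10 and SRSF11 had log2 changes between -0.21 and 0.06 under every siRNA against either control. Calls among them that held under every alternative included SRSF6 in siLong against mock (-0.14 ± 0.03, adjusted p = 0.000399) and SRSF11 in siTotal1 against siControl (-0.16 ± 0.04, adjusted p = 0.00123).

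**Figure D3:**
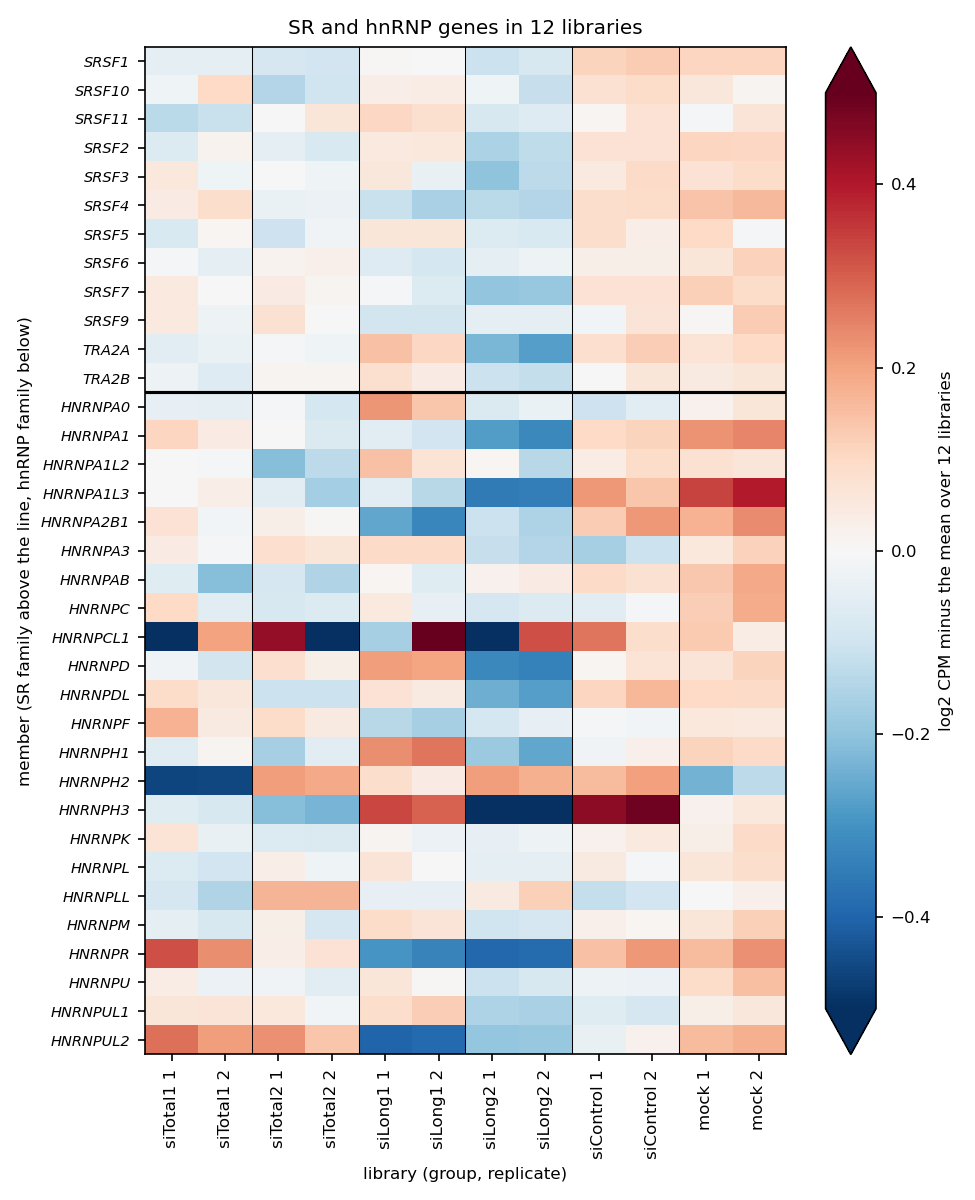
Log2 CPM of each tested member minus its mean over the 12 libraries, by library, with SR genes above the line and hnRNP genes below it, and colours saturating at 0.5 in either direction. HNRNPH3, HNRNPH2, HNRNPR and HNRNPUL2 carry the strongest colours among well counted genes, and HNRNPCL1 had only 15 to 35 reads per library.

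The hnRNP genes moved further and in both directions. Against siControl, siTotal called 5 of 23 higher and 7 lower, where 22% of all tested genes were called higher and 22.2% lower, and siLong called 3 higher and 9 lower (25.1% and 28.4% of all genes), with medians of -0.06 and -0.06. Against mock, siTotal called 0 higher (0 also at an unadjusted p under 0.05 and by DESeq2) and 11 lower (16.6% and 14.2% of all genes), and siLong 1 higher and 16 lower (24.4% and 26.4%), with medians of -0.11 and -0.14. With siLong1 alone the hnRNP median was 0.01 against siControl and -0.04 against mock. The 17 members called in siTotal against siControl, both families together (44.2% of all genes were called), became 11 without siControl replicate 1 and 10 without siControl replicate 2. The difference between the families was not tested.

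HNRNPR, a relative of SYNCRIP that binds mRNA in nucleus and cytoplasm, fell with both siLong siRNAs. It had 226 and 220.2 CPM in siLong1 and 211 and 212 in siLong2, against 307 and 323 in siControl and 309.9 and 325 in mock. The siLong libraries lay far below both controls, with no overlap. The log2 change was -0.53 ± 0.04 against siControl (adjusted p = 1.85e-15, edgeR) and -0.55 ± 0.04 against mock (adjusted p = 1.46e-15), and with siLong1 alone -0.50 and -0.51. In siTotal1 it had 347 and 326 CPM and in siTotal2 284 and 292. All siTotal1 libraries were above and all siTotal2 libraries below the controls of either kind. At the closest, siTotal1 replicate 2 had 325.9 CPM and mock replicate 2 had 324.9. HNRNPR was called in siTotal1 against neither control. In siTotal2 it was called lower than siControl (-0.13, adjusted p = 0.0092), a call lost under 2 alternatives. The change of siTotal minus siLong was 0.52 ± 0.03 (adjusted p = 3.24e-17, edgeR), and siTotal1 minus siTotal2 was 0.23 (adjusted p = 2.3e-05).

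HNRNPUL2, a paralog of the nuclear scaffold protein HNRNPU, had 61.5 and 58.8 CPM in siTotal1, 59.6 and 56.0 in siTotal2, 38.6 and 38.8 in siLong1 and 44.5 and 44.7 in siLong2, against 49.5 and 51.7 in siControl and 56.8 and 57.6 in mock. The siLong libraries were below both controls, and the siTotal libraries were above siControl and overlapped with mock. siLong changed it by -0.28 ± 0.04 against siControl (adjusted p = 1.11e-06) and -0.46 ± 0.04 against mock (adjusted p = 2.26e-11), and siLong1 alone by -0.39 and -0.56. siTotal changed it by 0.22 ± 0.04 against siControl (adjusted p = 7.67e-05) and by 0.04 ± 0.04 against mock (adjusted p = 0.464), and siTotal minus siLong was 0.51 ± 0.04 (adjusted p = 1.99e-14). A readthrough transcript that joins HNRNPUL2 to BSCL2 had 420 reads over all libraries and was not counted as a member.

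HNRNPA2B1 and HNRNPA1, which bind related silencer motifs, were both lower with siLong. HNRNPA2B1 had 1622 and 1527 CPM in siTotal1, 1574 and 1550.4 in siTotal2, 1289 and 1230.2 in siLong1 and 1429.8 and 1386 in siLong2, against 1683 and 1792 in siControl and 1742 and 1815 in mock. All 8 siRNA libraries were below all 4 controls. The change was -0.15 ± 0.04 for siTotal (adjusted p = 0.00153) and -0.38 ± 0.04 for siLong (adjusted p = 5.24e-11) against siControl, and -0.18 and -0.42 against mock. For siLong1 alone it was -0.46 against siControl and -0.50 against mock. The siTotal call was lost without siControl replicate 2 (adjusted p = 0.101), while siTotal minus siLong was 0.24 ± 0.03 (adjusted p = 4.3e-08).

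HNRNPA1 had 1405 and 1342 CPM in siTotal1, 1305 and 1242 in siTotal2, 1254 and 1221 in siLong1 and 1075 and 1044 in siLong2, against 1397 and 1411 in siControl and 1525 and 1547 in mock. The siLong libraries were below both controls, and siTotal1 overlapped with siControl. The siLong change was -0.29 ± 0.04 against siControl (adjusted p = 7.15e-09) and -0.42 ± 0.04 against mock (adjusted p = 1.3e-12), and with siLong1 alone -0.18 and -0.31. siControl was itself below mock, by a log2 change of -0.13 ± 0.04 (adjusted p = 0.0114), a call that was lost without mock replicate 2, siControl replicate 1 or siControl replicate 2 (adjusted p = 0.0705, 0.138 and 0.0979). HNRNPA1L3, a near copy of HNRNPA1 named HNRNPA1P48 in GENCODE 29, changed by -0.40 ± 0.09 for siLong against siControl (adjusted p = 0.000173) and by -0.28 ± 0.10 for siLong1 alone (adjusted p = 0.0197) on 212 to 485 reads per library. The siLong1 call was lost with DESeq2 (adjusted p = 0.0922), without siControl replicate 1 (0.126) and without siLong1 replicate 2 (0.138), and reads could be split between the copies.

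HNRNPAB, a relative of HNRNPD that also shuttles mRNA, fell most with siTotal. It had 315 and 283 CPM in siTotal1, 309 and 296 in siTotal2, 330.5 and 314 in siLong1 and 333 and 338 in siLong2, against 351 and 346 in siControl and 359.96 and 375 in mock. All siRNA libraries were below both controls. siTotal changed it by -0.21 ± 0.04 against siControl (adjusted p = 1.31e-05) and -0.29 ± 0.04 against mock (adjusted p = 1.71e-07), siLong by -0.08 ± 0.04 (adjusted p = 0.0598) and siLong1 alone by -0.11 ± 0.04 (adjusted p = 0.028) against siControl. The siLong1 call was lost with DESeq2 (adjusted p = 0.0674), with its size factors (0.0518), and without siControl replicate 1, siControl replicate 2 or siLong1 replicate 2 (0.129, 0.0633 and 0.269). Against mock, siLong changed it by -0.16 ± 0.04 (adjusted p = 0.000546), and siTotal minus siLong was -0.13 ± 0.03 (adjusted p = 0.000579).

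**Figure D4:**
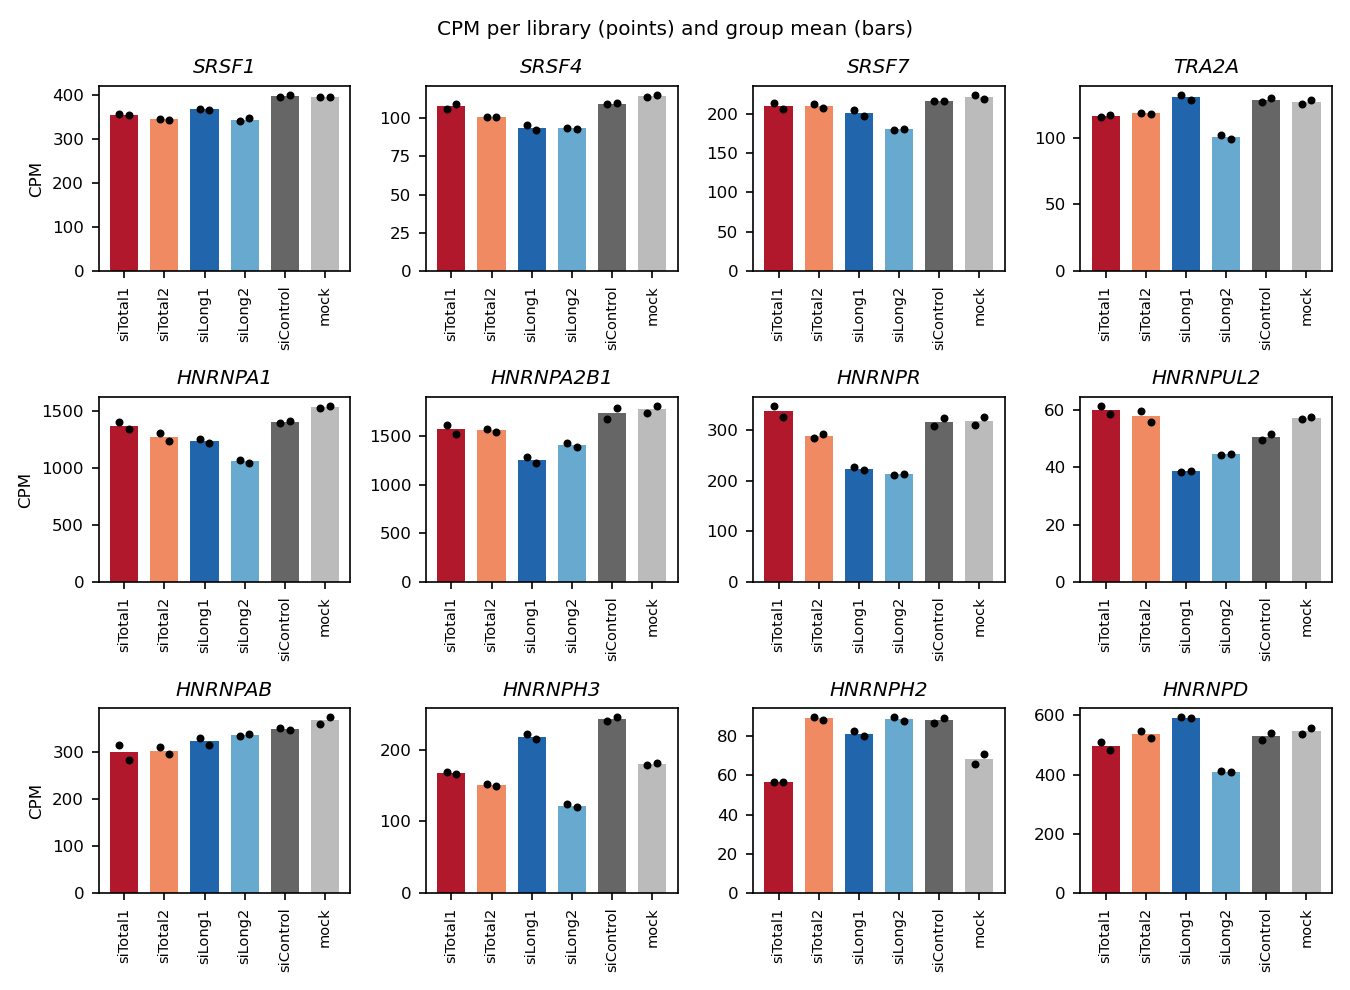
CPM of 12 members in each library (points) with the group mean (bars), siRNA groups first and then siControl and mock. SRSF1 and HNRNPA2B1 are below both controls in all 8 siRNA libraries, HNRNPR is lowest in the 4 siLong libraries (211 to 226 CPM), and HNRNPH3 is highest in siControl.

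HNRNPH1, HNRNPH2, HNRNPH3 and HNRNPF bind runs of G. HNRNPF had 477 and 437 CPM in siTotal1, 450.2 and 436 in siTotal2, 384 and 377 in siLong1 and 398 and 411 in siLong2, against 420.4 and 419 in siControl and 438 and 438 in mock. The siLong libraries were below both controls, with a change of -0.16 ± 0.04 against mock (adjusted p = 0.000271) and -0.10 ± 0.04 against siControl (adjusted p = 0.0192). The call against siControl was lost under 5 alternatives. Among them were the fits without siControl replicate 1, siControl replicate 2, siLong1 replicate 2 or siLong2 replicate 1. With siLong1 alone the change was -0.14 (adjusted p = 0.00376).

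HNRNPH3 had 168 and 166 CPM in siTotal1, 152 and 149 in siTotal2, 221 and 215 in siLong1 and 124 and 119.8 in siLong2, against 239 and 246 in siControl and 178 and 182 in mock. siControl was above every other group, so the sign for siLong1 depends on the control: -0.15 ± 0.04 against siControl (adjusted p = 0.00105) and 0.28 ± 0.04 against mock (adjusted p = 1.84e-07). siLong2 was lower against both, by -0.996 ± 0.04 (adjusted p = 1.39e-21) and -0.57 ± 0.04 (adjusted p = 1.61e-14). siTotal changed it by -0.61 ± 0.03 against siControl (adjusted p = 1.44e-17) and -0.18 ± 0.03 against mock (adjusted p = 6.05e-05).

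HNRNPH2 was low in 1 siTotal group only, with 56.5 and 56.7 CPM in siTotal1, 89.8 and 88.5 in siTotal2, 82.6 and 80.0 in siLong1 and 89.9 and 87.9 in siLong2, against 86.7 and 89.5 in siControl and 66.0 and 71.0 in mock. siTotal1 lay below both controls, and the other siRNA groups lay above mock. The change was -0.64 ± 0.05 for siTotal1 (adjusted p = 8.32e-14) and 0.02 ± 0.05 for siTotal2 (adjusted p = 0.794) against siControl, and siTotal1 minus siTotal2 was -0.66 ± 0.05 (adjusted p = 5.38e-14). HNRNPH2 and its readthrough with RPL36A share exons, but the readthrough averaged 0.2 reads per library.

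HNRNPD (AUF1), which binds AU-rich elements and affects mRNA decay, had 595 and 589 CPM in siLong1 and 412 and 407 in siLong2, against 518 and 539 in siControl and 539 and 556 in mock. siLong1 was above every control library and siLong2 below every one. HNRNPH1 followed with 651 and 666 CPM in siLong1 and 486 and 462 in siLong2, against 546 and 563 in siControl and 598 and 591 in mock. With siLong1 the change from siControl was 0.16 ± 0.04 for HNRNPD (adjusted p = 0.000728) and 0.25 ± 0.04 for HNRNPH1 (adjusted p = 5.2e-06), and with siLong2 it was -0.37 ± 0.04 (adjusted p = 7.83e-10) and -0.23 ± 0.04 (adjusted p = 2.48e-05). HNRNPDL, a paralog of HNRNPD, was lower in siLong2 (232 and 227 CPM) and siTotal2 (255.4 and 254.8 CPM), against 296 and 308 CPM in siControl and 294 and 294 CPM in mock.

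HNRNPA3, HNRNPA0 and HNRNPLL were among the hnRNP genes called higher than siControl in siTotal or siLong, where the share of the family called higher was not above that of all genes. Against mock, siTotal and siLong called none of HNRNPA3, HNRNPA0 and HNRNPLL higher. HNRNPA3 had 629 and 608 CPM in siTotal1, 649 and 638 in siTotal2, 653 and 653 in siLong1 and 564 and 552 in siLong2, against 546 and 567 in siControl and 635 and 663 in mock. siLong2 and siControl overlapped and were the lowest groups. siTotal was higher against siControl (0.18 ± 0.03, adjusted p = 4.28e-05) and was not called against mock (-0.04 ± 0.03, adjusted p = 0.41). siLong was higher against siControl (0.12 ± 0.03, adjusted p = 0.00411, edgeR) but lower against mock (-0.10, adjusted p = 0.011, edgeR). The siLong call against siControl was lost under 2 alternatives. The call against mock was lost under 1 and changed sign under 2. HNRNPA0, which binds AU-rich elements, changed by 0.14 ± 0.04 in siLong (adjusted p = 0.00074) and by 0.26 ± 0.04 in siLong1 alone (adjusted p = 1.13e-06) against siControl, with 305 and 288 CPM in siLong1 and 248.5 and 256 in siLong2, against 243 and 251.2 in siControl and 265 and 272 in mock. HNRNPLL, a regulator of CD45 splicing in T cells, changed by 0.13 ± 0.04 in siTotal (adjusted p = 0.0107) and in siLong (adjusted p = 0.012) against siControl. Each call was lost under 4 alternatives, which for both included leaving out siControl replicate 1. Among the others for siTotal were the fits without siControl replicate 2 or siTotal1 replicate 1. For siLong they included the fit without siLong2 replicate 2 and siLong1 alone (adjusted p = 0.27). The siTotal siRNAs differed for HNRNPLL, with 51.0 and 48.7 CPM in siTotal1 and 60.9 and 60.8 in siTotal2, against 49.7 and 50.6 in siControl and 53.9 and 55.0 in mock. siTotal1 overlapped with siControl, siTotal2 was above both controls, and siTotal1 minus siTotal2 was -0.29 ± 0.05 (adjusted p = 9.47e-06). HNRNPK, HNRNPL, HNRNPM, HNRNPC and HNRNPU, all among the well expressed members, had log2 changes between -0.11 and 0.06 under every siRNA against siControl and between -0.23 and -0.01 against mock. HNRNPC was called lower than mock in siTotal (-0.18 ± 0.04, adjusted p = 0.000447) and siLong (-0.19 ± 0.04, adjusted p = 8.38e-05).

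By single siRNA, the counts of called members against siControl were 0 higher and 4 lower of 12 SR genes and 4 higher and 5 lower of 23 hnRNP genes in siTotal1, where 22.9% of all genes were called higher and 20.5% lower. In siTotal2 the SR family had 0 higher and 6 lower and the hnRNP family 3 higher and 9 lower (22.6% of all genes each way), and the 18 members called (45.1% of all genes) became 11 without siControl replicate 2 or without siTotal2 replicate 1. In siLong1 the SR family had 0 higher and 5 lower and the hnRNP family 5 higher and 9 lower (26.4% and 28.1% of all genes), and these 19 members (54.5% of all genes were called either way) became 12 without siLong1 replicate 2. In siLong2 the SR family had 0 higher and 9 lower and the hnRNP family 1 higher and 10 lower (25.9% and 26.9%). Against mock, siTotal1 called 0 members higher (1 at an unadjusted p under 0.05, 0 by DESeq2) and 19 lower (22.1% of all genes higher, 18.7% lower), and these 19 (40.9% of all genes were called either way) became 11 without mock replicate 2. siTotal2 called 2 higher and 15 lower (14.1% and 12.6%), siLong1 5 higher and 13 lower (26% and 26.1%), and siLong2 1 higher and 28 lower (25.2% and 25%). The plot of change by siRNA shows SR genes in a narrow band and hnRNP genes spread around them.

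**Figure D5:**
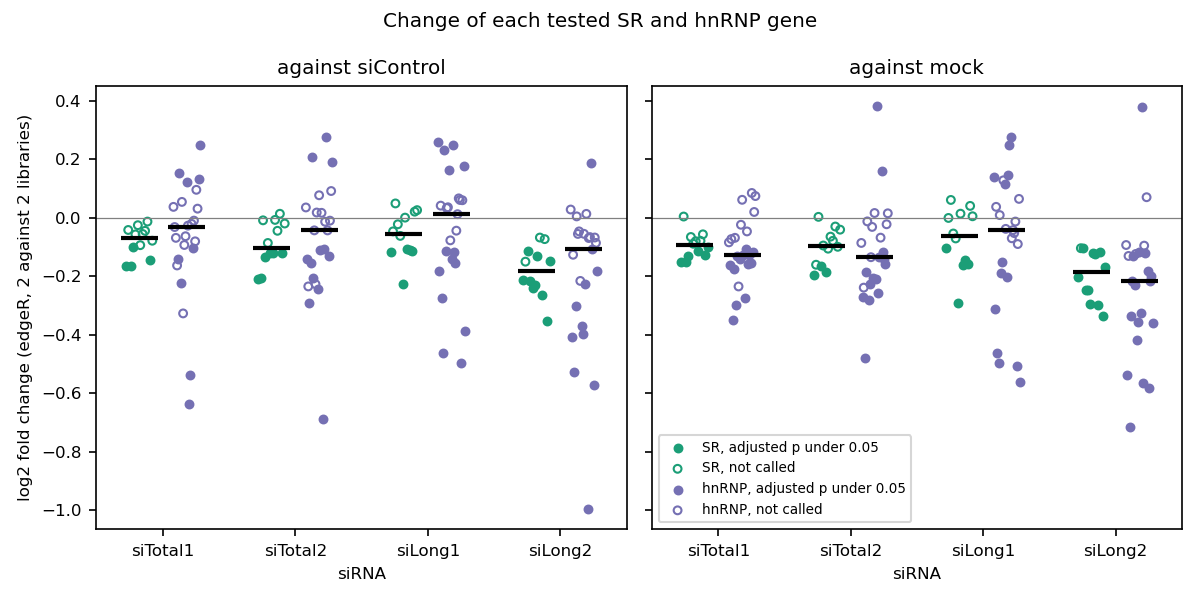
Log2 fold change of each tested SR and hnRNP gene under each siRNA against siControl (left) and against mock (right), 2 against 2 libraries, filled where the adjusted p was under 0.05, with the family median as a bar. SR genes lie between -0.35 and 0.06, while hnRNP genes reach -0.996.

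Set directly against each other, siTotal minus siLong called 4 of 12 SR genes higher and 0 lower, and 8 of 23 hnRNP genes higher and 4 lower, where 28.1% of all tested genes were called higher and 25.3% lower. The family medians were 0.02 (SR) and 0.01 (hnRNP), and with siLong1 alone in place of siLong they were -0.07 and -0.07. The siRNAs of 1 target also differed: siTotal1 minus siTotal2 called 1 SR gene lower and 4 hnRNP genes higher and 3 lower (23.3% of all genes higher, 20.6% lower), and siLong1 minus siLong2 called 8 SR genes higher and 0 lower and 11 hnRNP genes higher and 4 lower (26.7% and 27%).

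The controls differed from each other as well. siControl minus mock called 0 SR genes and, of the hnRNP genes, 2 higher and 7 lower, where 20.3% of all tested genes were called higher and 19.5% lower. The 9 members called (39.8% of all genes) became 5 without mock replicate 2, without siControl replicate 1 or without siControl replicate 2. The genes called higher were HNRNPH3 (0.43 ± 0.04, adjusted p = 1.8e-11) and HNRNPH2 (0.36 ± 0.05, adjusted p = 3.28e-08), and the largest falls were HNRNPA3 (-0.22 ± 0.04, adjusted p = 2.04e-05), HNRNPC (-0.18 ± 0.05, adjusted p = 0.00109) and HNRNPUL2 (-0.18 ± 0.05, adjusted p = 0.00445, and 0.104 without siControl replicate 1). No SR gene reached an unadjusted p under 0.05 there in edgeR (count 0), and DESeq2 also called 0.

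The machinery around both families was read from gene lists, with the counts below set against all tested genes: against siControl 22% were called higher and 22.2% lower in siTotal and 25.1% and 28.4% in siLong, and against mock 16.6% and 14.2% in siTotal and 24.4% and 26.4% in siLong. For many of these genes siControl itself stood apart from mock. Among 8 kinases that phosphorylate SR proteins, siTotal called 1 higher and 1 lower and siLong 1 higher and 2 lower against siControl, and 1 higher and 2 lower and 3 higher and 3 lower against mock. SRPK2, a cytoplasmic SR kinase, had 61.1 and 58.8 CPM in siTotal1, 61.9 and 60.6 in siTotal2, 61.3 and 60.9 in siLong1 and 67.3 and 70.5 in siLong2, against 34.8 and 36.0 in siControl and 58.8 and 61.8 in mock. It was higher against siControl (0.78 for siTotal, 0.87 for siLong), and the siControl libraries were the lowest of all 12. Its paralog SRPK1 changed by -0.44 ± 0.03 in siLong against siControl (adjusted p = 2.44e-13) and by -0.52 ± 0.03 against mock (adjusted p = 2.69e-15).

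CLK1, a nuclear SR kinase, had 23.9 and 26.8 CPM in siTotal1 and 28.1 and 29.8 in siTotal2, against 36.8 and 39.9 in siControl and 30.4 and 30.8 in mock. The siTotal change was -0.50 ± 0.05 against siControl (adjusted p = 6.02e-10) and -0.17 ± 0.05 against mock (adjusted p = 0.0109). Of 4 nuclear import receptors, siTotal called 0 higher and 2 lower and siLong 0 higher and 3 lower against siControl. Against mock, siTotal called 0 higher and 1 lower and siLong 0 higher and 3 lower. TNPO2 changed by -0.45 and -0.64 against siControl, which had 190 and 191 CPM beside 138 and 135 in mock. TNPO3, which carries SR proteins, changed by -0.35 ± 0.03 in siTotal and -0.24 ± 0.03 in siLong against siControl, and by -0.25 and -0.14 against mock. It had 107 and 109 CPM in siLong1 and 137 and 138 in siLong2, against 132 and 137 in mock. For siLong1 alone, the changes against siControl were 0.79 for SRPK2, -0.57 for SRPK1 and -0.42 for TNPO3.

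Of 14 tested nonsense-mediated decay genes, siTotal called 2 higher and 8 lower and siLong 3 higher and 5 lower against siControl, with medians of -0.14 and -0.02. Against mock, siTotal called 2 higher and 1 lower and siLong 5 higher and 5 lower, and siControl minus mock called 6 higher and 2 lower. SMG9, a partner of the SMG1 kinase, had 44.7 and 44.7 CPM in siTotal1, 51.7 and 51.7 in siTotal2, 41.3 and 43.3 in siLong1 and 48.5 and 46.7 in siLong2, against 83.2 and 79.4 in siControl and 49.7 and 48.5 in mock. It changed by -0.76 ± 0.04 in siTotal and -0.86 ± 0.04 in siLong against siControl, and by -0.03 (adjusted p = 0.648) and -0.13 (adjusted p = 0.0115) against mock.

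SMG5, which acts on phosphorylated UPF1, differed between the siTotal siRNAs. It had 199 and 189 CPM in siTotal1, 114 and 118 in siTotal2, 105 and 111 in siLong1 and 96.2 and 92.6 in siLong2, against 191 and 190 in siControl and 136 and 126 in mock. siTotal1 was close to siControl (0.02, adjusted p = 0.691) and above mock (0.56, adjusted p = 3.52e-13), and siTotal2 was below siControl (-0.71, adjusted p = 4.11e-16) and mock (-0.17, adjusted p = 0.00262). siLong was below both, by -0.91 ± 0.04 and -0.37 ± 0.04, and siLong1 alone by -0.81 and -0.27.

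Of 34 core spliceosome genes, siTotal called 4 higher and 12 lower and siLong 12 higher and 12 lower against siControl, and 2 higher and 13 lower and 7 higher and 13 lower against mock. Of 17 SR-related proteins, 3 were higher and 3 lower in siTotal and 8 higher and 2 lower in siLong against siControl, and 0 higher and 4 lower and 4 higher and 1 lower against mock. LUC7L changed by 0.45 and 0.37 and SAFB by 0.28 and 0.29 in siTotal and siLong against siControl, but neither was called against mock (0.06 and -0.02 for LUC7L, -0.03 and -0.02 for SAFB). Of 13 hnRNP proteins with other symbols, 2 were higher, the cold-inducible CIRBP and RBM3, and 6 lower with either target against siControl. Against mock, siTotal called 0 of them higher and 4 lower and siLong 1 higher and 7 lower, and RBM3 was lower (-0.20 and -0.24).

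Of 19 other splicing regulators, siTotal called 3 higher and 5 lower and siLong 3 higher and 8 lower against siControl, and 5 higher and 5 lower and 4 higher and 7 lower against mock. MBNL2, an RNA-binding regulator related to MBNL1, had 83.5 and 79.3 CPM in siTotal1, 52.4 and 56.3 in siTotal2, 57.6 and 57.1 in siLong1 and 56.8 and 60.4 in siLong2, against 40.9 and 43.1 in siControl and 49.5 and 57.4 in mock. All siRNA libraries were above siControl, and the change against mock was 0.61 in siTotal1 (adjusted p = 3.12e-10), 0.03 in siTotal2 (adjusted p = 0.784) and 0.12 in siLong (adjusted p = 0.0459). With siLong1 alone in place of siLong, the calls against siControl were 3 higher and 1 lower among the kinases, 4 and 8 among decay genes, 10 and 13 among core spliceosome genes, 10 and 0 among SR-related proteins, 4 and 3 among the other hnRNP proteins and 8 and 7 among the other regulators, where 26.4% and 28.1% of all genes were called.

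Members with a CCAAT in the promoter window were set beside those without. Of the 15 tested members with the motif, siTotal called 4 higher and 4 lower against siControl (22% and 22.2% of all genes), with a median of -0.02. Of the 16 without it, siTotal called 1 higher and 4 lower, with a median of -0.07. Against mock (16.6% and 14.2% of all genes), siTotal called 0 higher and 6 lower with the motif (median -0.085). Without the motif it also called 0 higher and 6 lower (median -0.089). For siLong against siControl (25.1% and 28.4% of all genes) the counts were 3 higher and 6 lower (median -0.08) with the motif. Without it they were 0 higher and 7 lower (median -0.08). Against mock (24.4% and 26.4% of all genes), siLong called 1 higher and 11 lower with the motif (median -0.15) and 0 higher and 10 lower without it (median -0.09). For siLong1 alone against siControl (26.4% and 28.1%) they were 2 higher and 7 lower with the motif (median -0.06) and 3 higher and 5 lower without it (median -0.02). Against mock (26% and 26.1% of all genes), siLong1 alone called 3 higher and 6 lower with the motif (median -0.07). Without the motif it called 2 higher and 5 lower (median -0.007). The difference between the sets was not tested, and family and motif go together, since most members with the motif are hnRNP genes.

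Some values are less certain. The library kit marks strand, but the sources used here do not say whether the counting used it. Exons on the opposite strand overlap HNRNPA2B1 (CBX3), HNRNPH3 (RUFY2), HNRNPAB (PHYKPL), SRSF2 (MFSD11), HNRNPUL1 (TGFB1), HNRNPU (COX20) and SRSF9 (GATC). CBX3 averaged 15519.6 reads per library beside 59727.7 for HNRNPA2B1 and changed by -0.15 in siLong against siControl (adjusted p = 0.00022), while RUFY2 averaged 637.5 reads beside 6895.2 for HNRNPH3 and changed by 0.04 (adjusted p = 0.659). The 74 pseudogenes of HNRNPA1 held 8522 reads, 1.40% of the gene's own, and those of HNRNPA3 1.85%.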

How the data were processed

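The deposited table holds raw counts, whole reads assigned to each Ensembl identifier, with a column for each of 12 libraries. The submitters' processing notes name STAR 2.4.0f1, featureCounts and the build hg19. The sources used here do not state the annotation release, strand setting, read filter or featureCounts version. Symbols were matched by identifier, gene positions and merged exon lengths came from GENCODE 29 on GRCh38, and promoter sequence from RefSeq GRCh38.p14. Groups and replicate numbers came from the sample titles.

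filterByExpr (count 10, total 15) kept 17730 genes. TMM scaling was followed by edgeR 4.0.16 under R 4.3.3, as a robust quasi-likelihood fit of all 6 groups with 6 residual degrees of freedom, since 2 biological duplicates a group leave too few of their own. Benjamini-Hochberg adjustment ran over all tested genes, with calls under 0.05. A standard error is the absolute log2 change over the square root of F. CPM is TMM-scaled, and SDs are over 2 libraries. The fit was tested on simulated data. Replicates of a group differed by more than sampling noise (chi-square per degree of freedom 1.83 to 7.34).

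Named members were the 3 largest called changes each way in the 6 main comparisons above an average log2 CPM of 1, members called the same way by both siRNAs of a target against both controls, TRA2A and TRA2B, and members with overlapping genes or near copies. From each pathway list up to 4 called genes of largest change could be named. Other members were named after their values were seen. Members and lists were chosen with earlier results of these data known. HNRNPCL2 and HNRNPCL3 were not analysed here. Alternatives were DESeq2 1.42.0, its size factors in edgeR, no filter, a replicate block, each library left out with the tested genes kept, both controls as 1, and, added after seeing the data, siLong1 in place of siLong.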

Additional observations from a re-analysis of the deposited data

Results flagged for a closer look

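HNRNPD and HNRNPH1 moved in opposite directions under the siRNAs of 1 target, and the difference itself passed edgeR's test. For HNRNPD the log2 change against siControl was 0.16 for siLong1 and -0.37 for the libraries with the label siLong2, a difference of 0.533 (siLong1 minus siLong2, adjusted p = 1.02e-13). For HNRNPH1 it was 0.25 for siLong1 and -0.23 for siLong2, a difference of 0.473 (adjusted p = 7.54e-12). For either gene, both siLong1 libraries were above both siControl libraries, and both siLong2 libraries were below them.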

How the results depend on the processing

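The 288 called member results had 4734 values under the alternatives, of which 4722 kept their sign and 405 of those were no longer past the threshold. Leaving out the siLong2 libraries, tried after seeing the data, gave 11 of the 12 changes of sign. Without them the siLong change against siControl was 0.16 for HNRNPD and 0.021 for TRA2A. Against mock it was 0.0093 for HNRNPA3 (0.0071 with mock and siControl as 1 control), 0.11 for HNRNPD, 0.15 for HNRNPH1, 0.28 for HNRNPH3, 0.041 for TRA2A and 0.0053 for TRA2B. For siTotal minus siLong it was -0.077 for HNRNPDL, -0.066 for HNRNPUL1 and -0.0096 for SRSF3. The SR median without siLong2 was -0.054 against siControl, -0.062 against mock and -0.073 for siTotal minus siLong, and the hnRNP median was 0.012, -0.042 and -0.066. The causes were not tested.

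Leaving out 1 library at a time, on the same 17730 genes, the members called were 10 to 20 in siTotal, 11 to 20 in siTotal2 and 12 to 20 in siLong1 against siControl, 11 to 21 in siTotal1 against mock and 5 to 10 in siControl against mock. The SR median ranged from -0.0978 to -0.0742 in siTotal and from -0.125 to -0.106 in siLong against siControl, from -0.107 to -0.084 in siTotal and from -0.157 to -0.124 in siLong against mock, and from -0.0213 to 0.0113 in siControl against mock. The hnRNP median of siTotal minus siLong ranged from -0.026 to 0.028. Keeping the genes fixed was decided after seeing the values. With the filter run again each time, 18377 to 18440 genes entered, and the SR median of siTotal against mock ranged from -0.114 to -0.0968, which leaves out its value of -0.084 on all libraries.

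The replicate numbers did not pair the samples in a uniform way. Over 10091 genes, the differences between replicates 1 and 2 were correlated between groups with both signs. They ran from -0.293 (siTotal2 and siLong2) to 0.339 (siTotal1 and siLong1), and 6 of 15 pairs of groups were over 0.1. Libraries of different groups thus shared variation that the main fit did not model, and its source was not tested. The replicate block left the counts of called members against siControl at 17 for siTotal and 20 for siLong. With 2 libraries a group, SR changes near -0.1 lay close to the limit of what was called here.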
